A study of Mus musculus with 2 samples.

Results

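Chemokines are small secreted proteins that bind receptors on leukocytes and draw them into a tissue, and tumour cells are among the cells that make them. The set described here holds 10 genes, chosen by symbol for their roles: 8 chemokines (Ccl2, Ccl7, Ccl5, Cxcl1, Cxcl2, Cxcl10, Cxcl12 and Cxcl16), the cytokine Il6 and the macrophage growth factor Csf1. They are 10 of 55487 named records, each symbol had a single record, and all 10 counted as measured, which took a level of 1 TPM in either library. TPM is the abundance of a transcript per unit of length, scaled to a fixed total in every library.

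The cells were LPC-HRas, a mouse line that its depositors label as hepatocellular carcinoma cells from liver, infected with lentivirus carrying a short hairpin against Etv4 (shETV4) or the control hairpin shRFP, directed at a red fluorescent protein. Both groups share the line, the HRas in its name and the lentiviral infection, and each group is a single library with 1 hairpin, so the differences have no replicates behind them and no test was made. Both value columns carry the suffix _2, whose meaning (another run, or another sample of the group) is unknown. The depth of the libraries is unknown, since TPM keeps no record of it. Etv4, the ETS-family transcription factor that the hairpin targets, was at 16.2 TPM in the shETV4 library and 73.2 TPM in the shRFP library. The label of liver carcinoma was compared with marker genes: albumin (Alb) was listed at 0 in both libraries and 2 of 10 hepatocyte markers were measured, while 4 of 9 progenitor and biliary markers and 7 of 12 stellate cell and fibroblast markers were. In bulk RNA, fewer cells of a kind and less RNA per cell cannot be told apart. Each difference is the log2(TPM + 1) value with shETV4 less the one with shRFP, so differences of sparse genes come out smaller than their plain ratios. Calls, higher or lower, were made from a difference of 1 in size, which is 2-fold; folds written beside TPM values are plain ratios.

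As background, most inflammatory chemokine genes carry binding sites for NF-kB near their start and are switched on by signals such as tumour necrosis factor, interleukin-1 or bacterial products. Some, with Cxcl10 and Ccl5 as the textbook cases, also respond to interferon. Cxcl12 is a homeostatic chemokine made without such signals, and Csf1 keeps macrophages alive in tissues.

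Of these 10 genes Ccl5 alone was called higher in the shETV4 library, none was called lower, and 9 lay within 2-fold. Among all 12968 measured named genes 3.39% were called higher and 7.06% lower, and 1 call in 10 genes does not set them apart from that background. Of the 10 genes 4 lay above 0 (Ccl5, Cxcl16, Cxcl10 and Cxcl2) and 6 below. That split is near the one over all measured genes, 41.6% above and 58.3% below. The median difference of the 10 was -0.13, against -0.10 over all measured genes. Summed, the 10 genes held 2005 TPM with shETV4 and 1974 TPM with shRFP, or 0.201% of the shETV4 and 0.197% of the shRFP library. The sum was thus nearly the same in both libraries while its make-up differed: without Ccl5 it was 1564 TPM with shETV4 and 1810 TPM with shRFP.

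**Figure D1:**
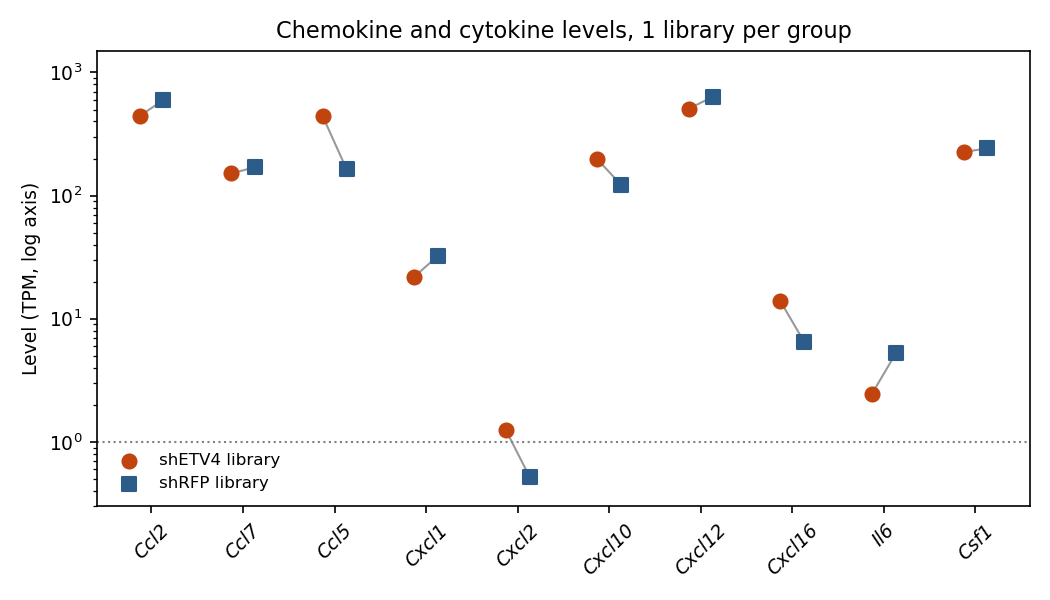
Level of each of the 10 genes in TPM (log axis) in the shETV4 library (circles) and the shRFP library (squares), 1 library per group, with a dotted line at 1 TPM. Ccl5 is at 441 TPM with shETV4 and 164 TPM with shRFP; the widest distance between genes, from Cxcl12 to Cxcl2, is far larger than any distance between the libraries.

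The 10 genes fell into a group of transcripts above 100 TPM in both libraries, called abundant, and 4 well below it, called sparse beside them. Among all 12968 measured genes Cxcl1, the highest of those 4, was not sparse: it ranked 5239 with shETV4 and 4288 with shRFP. In the shETV4 library the order from the highest was Cxcl12, Ccl2, Ccl5, Csf1, Cxcl10, Ccl7, Cxcl1, Cxcl16, Il6 and Cxcl2. In the shRFP library it was Cxcl12, Ccl2, Csf1, Ccl7, Ccl5, Cxcl10 and then the same 4 sparse genes in the same order. Ccl5 and Cxcl10 both stood ahead of Ccl7 with shETV4 and behind it with shRFP. With a single library a group, whether neighbours in either order differ cannot be told.

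The promoters of 4 of the genes are shown because they hold the motifs usually linked to the inflammatory and interferon control of chemokines, and because these genes lay on both sides of 0 here. RefSeq gives promoters on GRCm38.p6 for 6 of the 10 (Cxcl1, Cxcl2, Cxcl10, Cxcl12, Il6 and Csf1), and the 250 bases before the start were searched on both strands for the interferon-stimulated response element core (GAAA, any 2 bases, GAAA), the kB motif (GGGA, any 2 bases, TTCC), the AP-1 motif TGANTCA and the ETS motif AGGAAG of the PEA3 type. Capitals mark every match; the 11 capitals of Cxcl1 and Cxcl2 are overlapping kB matches on the 2 strands. The windows are chr5:92348890-92349139 on the minus strand and, on the plus strand, chr5:90890995-90891244, chr5:90903649-90903898 and chr5:30012864-30013113, written 5′ to 3′.
Cxcl10: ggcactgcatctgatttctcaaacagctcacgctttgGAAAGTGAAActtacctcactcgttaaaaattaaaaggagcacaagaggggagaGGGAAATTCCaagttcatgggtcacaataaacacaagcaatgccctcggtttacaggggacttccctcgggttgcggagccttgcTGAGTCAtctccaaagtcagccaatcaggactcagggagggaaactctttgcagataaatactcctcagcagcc
Cxcl1: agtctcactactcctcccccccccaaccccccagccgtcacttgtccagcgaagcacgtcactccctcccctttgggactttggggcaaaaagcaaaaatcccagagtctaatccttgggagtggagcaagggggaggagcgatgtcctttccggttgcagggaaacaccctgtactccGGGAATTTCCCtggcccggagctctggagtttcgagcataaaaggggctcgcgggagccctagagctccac
Cxcl2: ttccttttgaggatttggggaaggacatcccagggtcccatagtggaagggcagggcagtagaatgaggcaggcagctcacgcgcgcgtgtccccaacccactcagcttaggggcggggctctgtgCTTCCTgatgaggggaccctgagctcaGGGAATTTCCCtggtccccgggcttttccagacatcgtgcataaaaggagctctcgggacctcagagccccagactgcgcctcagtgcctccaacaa
Il6: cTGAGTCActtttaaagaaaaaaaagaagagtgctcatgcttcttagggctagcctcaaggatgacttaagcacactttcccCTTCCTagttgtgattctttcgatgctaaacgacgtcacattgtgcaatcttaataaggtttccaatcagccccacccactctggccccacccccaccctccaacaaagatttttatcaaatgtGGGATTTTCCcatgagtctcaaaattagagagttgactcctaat

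The kB motif was in 5 of the 6 promoters, all but that of Cxcl12, and in 1.21% of 32851 promoters of the same length. The response element core was in that of Cxcl10 alone, 213 to 204 bases before the start, and in 2.98% of all promoters. AP-1 matches were in those of Cxcl10 and Il6 (6.75% of all promoters) and ETS matches in those of Cxcl2 and Il6 (29.5%). The kB match of Cxcl10 reads GGGAAATTCC, that of Il6 GGGATTTTCC, and Cxcl1 and Cxcl2 share GGGAATTTCC at 71 to 62 and 97 to 88 bases before their starts. Genes with a kB match included Cxcl10 and Cxcl2 above 0 and Cxcl1, Il6 and Csf1 below 0. Since Cxcl12 alone lacks a match, whether the motif goes with direction cannot be told from these genes. A match of letters is no proof of a bound site.

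Base composition moved with the differences. Across 12947 measured genes the difference rose with the GC content of the transcripts (rank correlation 0.52 over genes, which are not independent replicates and share the same 2 libraries), and the 10 genes ranged from 38.6% GC in Il6 to 54.3% in Csf1, against a median of 50.7% over measured genes. After subtraction of a running median along GC content, called the GC adjustment below, 3 of the 10 genes were called higher (Ccl5, Cxcl2 and Cxcl16) and none lower, where 4% of all genes were called higher and 2.32% lower. The median of the 10 was then 0.29, against -0.0004 over all genes so adjusted, which the subtraction itself brings near 0. The part of base composition in the differences below was not tested beyond this adjustment.

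The abundant monocyte chemokines Ccl2 and Ccl7 lay slightly lower in the shETV4 library. Ccl2 (ENSMUSG00000035385, chromosome 11, 82035571 to 82037453, plus strand of GRCm38), the main ligand of the receptor CCR2 and the chief attractant of inflammatory monocytes, was at 443 TPM with shETV4 and 597 TPM with shRFP, a difference of -0.43. Ccl7 (ENSMUSG00000035373, 82045712 to 82047525), another ligand of CCR2 whose start lies 10.1 kb away, was at 151 TPM with shETV4 and 170 TPM with shRFP, a difference of -0.17. Both are thus within 2-fold and keep a similar proportion, Ccl2 being 2.93 times Ccl7 with shETV4 and 3.51 times with shRFP. Their transcripts are poor in GC, at 43.8% for Ccl2 and 42.9% for Ccl7. With the GC adjustment the direction turned for both, to 0.14 for Ccl2 and 0.44 for Ccl7.

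Further genes of the same cluster were sparse. Ccl8, another monocyte attractant 79.6 kb from Ccl2, was at 4.33 TPM with shETV4 and 6.06 TPM with shRFP. Ccl11, the eosinophil attractant eotaxin, lies between them at 0.88 TPM with shETV4 and 0.59 TPM with shRFP, and Ccl12 and Ccl1 were listed at 0 in both libraries. High levels in this cluster were therefore limited to its first 2 genes.

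Ccl5 had the largest difference of the 10 genes. Ccl5 (ENSMUSG00000035042, chromosome 11, 83525778 to 83530518, minus strand), known as RANTES, attracts T cells, natural killer cells and monocytes. It was at 441 TPM in the shETV4 library and 164 TPM in the shRFP library, 2.69-fold higher and a difference of 1.42. That difference was above 98.4% of measured genes. Among the 1690 genes that reached 100 TPM in either library, 3.02% were called higher and 2.43% lower, and the SD of the difference was 0.38 over the 1344 at that level in both. Ccl5 stayed past 2-fold with every other pseudocount, filter and scale tried and after GC adjustment (1.37), but not at a 3-fold threshold.

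The level of Ccl5 with shETV4 was close to that of Ccl2. The ratio of Ccl2 to Ccl5 was 1.004 with shETV4 and 3.63 with shRFP, and that of Cxcl12 to Ccl5 was 1.15 with shETV4 and 3.86 with shRFP. Its neighbours along the chromosome were near the bottom of the scale: Ccl9 at 1.21 TPM with shETV4 and 1.94 TPM with shRFP, Ccl3 at 1.31 TPM with shETV4 and 0.36 TPM with shRFP, Ccl4 at 0.55 TPM with shETV4 and 0.15 TPM with shRFP, and Ccl6 listed at 0 in both. Ccl3 and Ccl4 encode the macrophage inflammatory proteins. Ccl3 lay at a difference of 0.76, within 2-fold, and Ccl4 did not reach 1 TPM.

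Ccl5 is also a product of T and natural killer cells, so leukocyte markers were read beside it. None of 10 lymphoid markers was measured: their summed level was 0 TPM with shETV4 and 0.09 TPM with shRFP, and Cd3e, Cd3d, Nkg7 and Ncr1 were listed at 0 in both. Of 16 myeloid markers 2 were measured, with sums of 17.6 TPM with shETV4 and 9.85 TPM with shRFP. Nearly all of that sum was Cd14, the lipopolysaccharide co-receptor, at 15.2 TPM with shETV4 and 8.68 TPM with shRFP. The macrophage and neutrophil genes Adgre1, C1qa, Tyrobp, S100a8 and S100a9 were listed at 0 in both libraries, and Ptprc, the pan-leukocyte gene, was at 0.03 TPM with shETV4 and 0 TPM with shRFP.

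By distance in the 2 log2 levels, the protein-coding genes nearest to Ccl5 among 11569 were Lgals3bp (365 TPM with shETV4 and 147 TPM with shRFP, distance 0.32), Cdk8 (589 TPM with shETV4 and 153 TPM with shRFP, 0.43) and Tapbp (318 TPM with shETV4 and 164 TPM with shRFP, 0.47). Such a likeness rests on 2 values a gene.

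**Figure D2:**
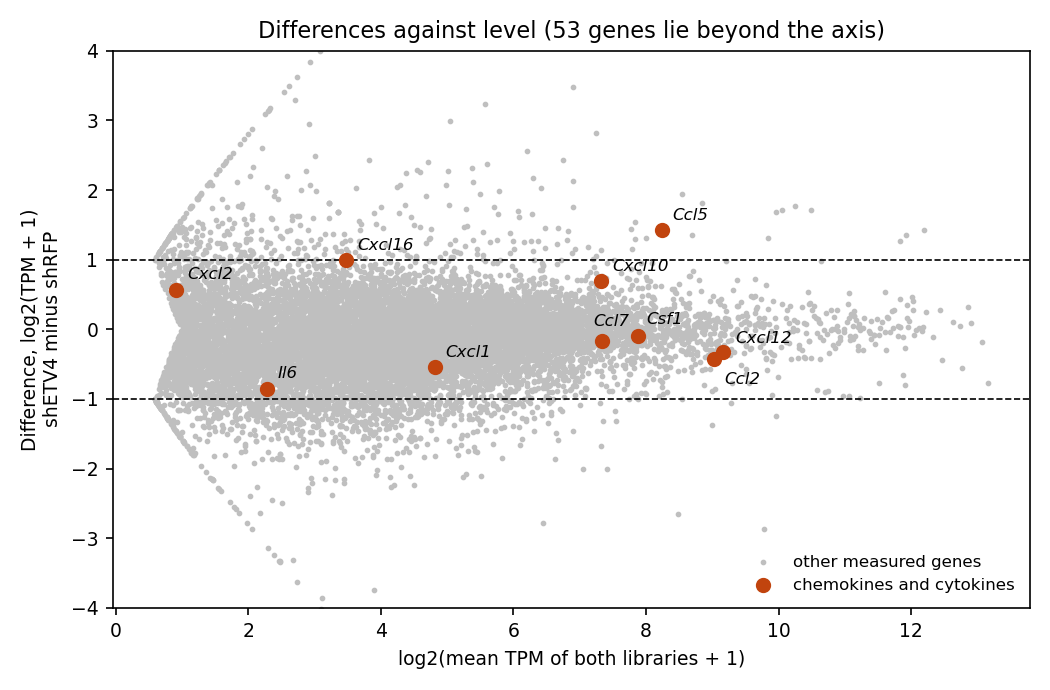
Difference on the log2(TPM + 1) scale, shETV4 minus shRFP, against the log2 mean level of both libraries for all measured genes (grey) and the 10 chemokine and cytokine genes (coloured), with dashed lines at 2-fold. Ccl5 lies above the upper line, Cxcl16 just under it, and Il6 is the lowest of the 10 at -0.85; 53 genes lie beyond the axis.

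Cxcl10, named above with Ccl5 as a textbook case of response to interferon, lay on the same side as Ccl5 but within 2-fold. Cxcl10 (ENSMUSG00000034855, chromosome 5, 92346638 to 92348889, minus strand) is a ligand of CXCR3 on activated T cells. Its promoter holds the letter match to the response element core shown above. The level was 197 TPM with shETV4 and 122 TPM with shRFP. This is 1.62-fold higher, a difference of 0.69 above 93.4% of measured genes, and 0.89 after GC adjustment. Its neighbours Cxcl9 and Cxcl11, the other 2 ligands of CXCR3, were at 0.58 and 0.35 TPM with shETV4 and at 0.25 and 0.05 TPM with shRFP. The CXCR3 ligands were therefore represented almost wholly by Cxcl10 in both libraries. The gene lies inside Art3 on the opposite strand and shares 4.47% of its 31-base words with it; Art3 was at 0.51 TPM with shETV4 and 0.14 TPM with shRFP.

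The listed genes of the interferon pathway lay higher with shETV4, a result known when the list was chosen. Whether they act on Ccl5 or Cxcl10 in these cells was not tested. Of 6 such genes 3 were called higher and none lower, with a median of 1.10. Irf7, the factor that amplifies the interferon response, was at 125 TPM with shETV4 and 20.4 TPM with shRFP. Stat2, a signal transducer of type I interferon, was at 48.1 TPM with shETV4 and 19.3 TPM with shRFP. Irf9, which binds DNA together with Stat2, was at 66.9 TPM with shETV4 and 34.2 TPM with shRFP, and Irf1 and Irf3 were closer between libraries, at differences of 0.45 and 0.25. The gene of interferon beta, Ifnb1, was at 0.68 TPM with shETV4 and listed at 0 with shRFP, and Ifna4 and Ifng were listed at 0 in both.

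The neutrophil chemokines Cxcl1 and Cxcl2 lie 12.6 kb apart, carry the same kB match and differed widely in level. Cxcl1 (ENSMUSG00000029380, chromosome 5, 90891241 to 90893115, plus strand), a ligand of CXCR2 long known in mice as KC, was at 21.9 TPM with shETV4 and 32.4 TPM with shRFP, a difference of -0.54. Cxcl2 (ENSMUSG00000058427, 90903871 to 90905938, plus strand), the CXCR2 ligand known as MIP-2, was at 1.25 TPM with shETV4 and 0.52 TPM with shRFP, a difference of 0.57. Cxcl1 was 17.5 times Cxcl2 with shETV4 and 62.3 times with shRFP. The 2.40-fold plain ratio of Cxcl2 rests on values near 1 TPM, and its difference ranged from 0.18 with a pseudocount of 5 to 1.12 with a pseudocount of 0.1. Cxcl2 also shares 7.59% of its 31-base words with Cxcl3, so the division of reads between them is uncertain; Cxcl3 was at 1.92 TPM with shETV4 and 2.02 TPM with shRFP.

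The most abundant ligand of CXCR2 was outside the 10 genes. Cxcl5, 131.9 kb from Cxcl1, was at 72.2 TPM with shETV4 and 93.2 TPM with shRFP, 3.29 times Cxcl1 with shETV4 and 2.87 times with shRFP. Cxcl1 and Cxcl5 thus both lay lower with shETV4 and within 2-fold. Cxcl1 came to -0.06 after GC adjustment and Cxcl5 to 0.38. Between them on the chromosome, Pf4, the platelet chemokine, was at 2.01 TPM with shETV4 and 1.34 TPM with shRFP, and Ppbp and Cxcl15 stayed below 0.4 TPM in both libraries.

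**Figure D3:**
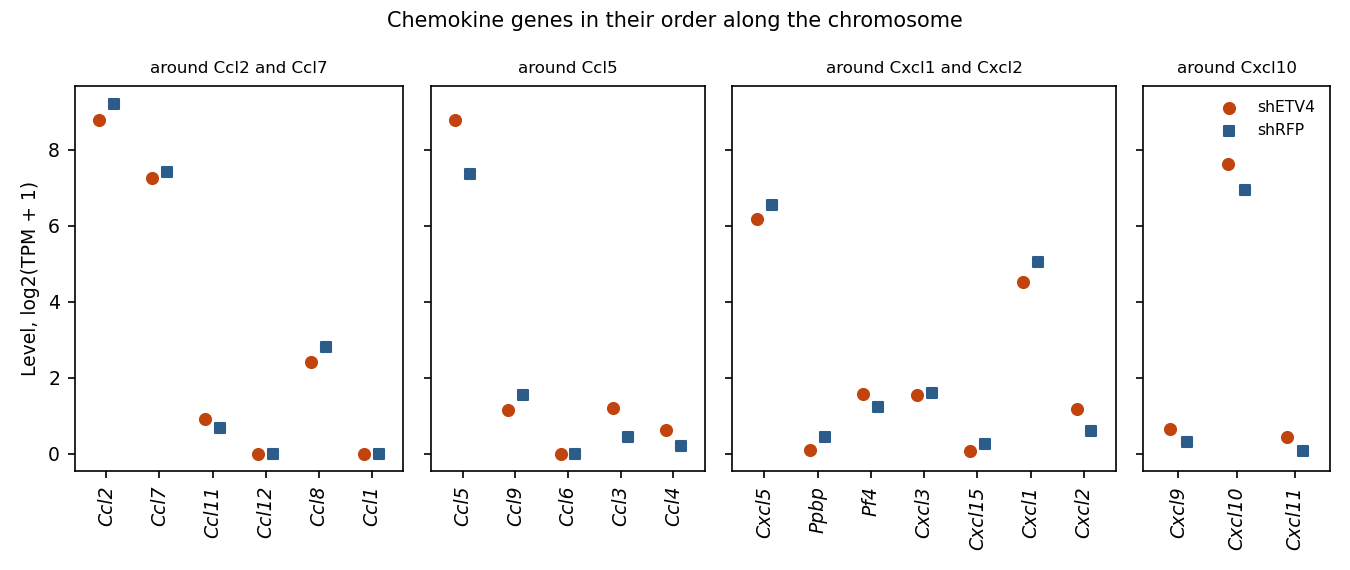
Level on the log2(TPM + 1) scale of chemokine genes lying within 200 kb of Ccl2 and Ccl7, Ccl5, Cxcl1 and Cxcl2, and Cxcl10, in order along the chromosome, in the shETV4 (circles) and shRFP (squares) libraries. Each cluster holds 1 or 2 genes at higher levels than the rest, and the distance between libraries is widest for Ccl5.

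Cxcl12, the most abundant of the 10 genes in both libraries, differed little. Cxcl12 (ENSMUSG00000061353, chromosome 6, 117168535 to 117181367, plus strand), the stromal factor SDF-1 that holds CXCR4-bearing cells in their niche, was at 507 TPM with shETV4 and 635 TPM with shRFP, a difference of -0.32. It ranked 287 of the measured genes with shETV4 and 231 with shRFP. Of its receptors, Cxcr4 was listed at 0 in both libraries and the scavenging receptor Ackr3 was at 29.3 TPM with shETV4 and 24.7 TPM with shRFP. The proximal promoter of Cxcl12 alone among the 6 held no match to any of the 4 motifs.

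Cxcl12, Ccl2, Il6 and Csf1 are also products of fibroblasts, so markers of other cell types were read beside them. The 12 stellate cell and fibroblast markers summed to 1535 TPM with shETV4 and 1910 TPM with shRFP; none of the 7 measured was called, the median was 0.37, and Lrat, which defines stellate cells, was listed at 0 in both libraries. Acta2, smooth muscle actin, was at 655 TPM with shETV4 and 1256 TPM with shRFP and differed by more than the sum did, so the other markers together lay higher with shETV4, and the collagen genes Col3a1 and Col1a1 lay above 0 at 0.55 and 0.19. Of 10 endothelial markers Egfl7 alone was measured, at 18.8 TPM with shETV4 and 13.5 TPM with shRFP, and Cdh5, Tek and Lyve1 were listed at 0 in both. Of the measured hepatocyte markers Trf, transferrin, was at 127 TPM with shETV4 and 27.5 TPM with shRFP and Ahsg, fetuin, at 1.74 TPM with shETV4 and 0.34 TPM with shRFP, both called higher. Of the progenitor and biliary markers Cd24a was called lower, at 55.5 TPM with shETV4 and 132 TPM with shRFP, and Sox9, Krt19 and Spp1 lay above 0 within 2-fold. Whether any of these moved the chemokines was not tested.

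Cxcl16 lay at the threshold. Cxcl16 (ENSMUSG00000018920, chromosome 11, 70453983 to 70459984, minus strand), which is made as a membrane protein, freed by the proteases ADAM10 and ADAM17 and read by CXCR6 on T cells, was at 13.9 TPM with shETV4 and 6.47 TPM with shRFP. The plain ratio was 2.14-fold higher and the difference 0.99, just inside the threshold and above 96.5% of measured genes. It passed 2-fold with a pseudocount of 0.1 (1.09), with the median ratio set to 1 (1.05), with the trimmed mean of log ratios set to 0 (1.06) and after GC adjustment (1.05), and came to 0.72 with a pseudocount of 5. Of its 31-base words 18.5% occur in Zmynd15, which overlaps its start on the opposite strand and was at 2.68 TPM with shETV4 and 1.86 TPM with shRFP; the sources used here do not give the strand setting, so reads of the 2 genes cannot be told apart there.

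The proteases that release or trim chemokines lay on both sides of 0. Of 11 such genes 7 were measured, at a median of 0.49, and none was called. Adam10 was at 29.5 TPM with shETV4 and 45.5 TPM with shRFP. Adam17 was at 16.4 TPM with shETV4 and 24.1 TPM with shRFP. Both lay lower with shETV4, but came to -0.07 (Adam10) and -0.11 (Adam17) after GC adjustment. Mmp2, which clips CCL7 and CXCL12, was at 317 TPM with shETV4 and 206 TPM with shRFP, and Mmp14, its activator, at 187 TPM with shETV4 and 158 TPM with shRFP. Rhbdf1 and Rhbdf2, which help ADAM17 mature, lay above 0 at 0.49 and 0.51, and Dpp4, which inactivates several chemokines, was at 0.01 TPM with shETV4 and 0 TPM with shRFP.

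Il6 was sparse and lay lower. Il6 (ENSMUSG00000025746, chromosome 5, 30013114 to 30019981, plus strand), the inflammatory cytokine that drives the acute phase response of the liver, was at 2.46 TPM with shETV4 and 5.24 TPM with shRFP, 2.13-fold lower as a plain ratio. Its difference of -0.85 was not called, passed 2-fold with a pseudocount of 0.1 (-1.06) and came to -0.07 after GC adjustment; at 38.6% its transcripts have the lowest GC content of the 10. The related ligands Lif, Clcf1 and Ctf1, which signal through the same chain Il6st, lay above 0 at 0.11, 0.45 and 0.38. Among 8 receptor and signal genes of Il6 and Csf1, 7 were measured, none was called and the median was 0.08. The receptor Il6ra was at 2.70 TPM with shETV4 and 2.49 TPM with shRFP, Il6st at 35.0 TPM with shETV4 and 36.7 TPM with shRFP, and Socs3, a feedback gene of the pathway, at 36.4 TPM with shETV4 and 24.7 TPM with shRFP.

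Csf1 hardly differed. Csf1 (ENSMUSG00000014599, chromosome 3, 107741048 to 107760469, minus strand), the growth factor of macrophages, was at 226 TPM with shETV4 and 242 TPM with shRFP, a difference of -0.10 close to the median of all measured genes. Il34, the other ligand of the same receptor, was at 13.8 TPM with shETV4 and 6.96 TPM with shRFP, a difference of 0.90. Csf1 was 16.3 times Il34 with shETV4 and 34.8 times with shRFP. Their receptor Csf1r was at 0.30 TPM with shETV4 and 0.78 TPM with shRFP.

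The wider families gave few calls. Of 38 mouse chemokine genes looked up, 19 were measured, 11 were listed at 0 in both libraries, and Ccl5 alone was called. The 8 chemokines described held 88.3% of the summed chemokine TPM with shETV4 and 88.8% with shRFP. Outside them, 11 of 30 were measured and none was called, with a median of -0.16. After GC adjustment the median of these chemokines was 0.38, and Ccl3 was called higher at 1.15. Cx3cl1, a membrane-bound chemokine also called fractalkine, was the highest of these with shETV4 and second to Cxcl5 with shRFP, at 108 TPM with shETV4 and 68.0 TPM with shRFP, a difference of 0.67. Ccl25, Ccl27a and Ccl17 followed, at 15.2, 16.8 and 7.06 TPM with shETV4 and 17.1, 12.1 and 10.5 TPM with shRFP.

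Receptors for these ligands were nearly absent. Of 23 chemokine receptor genes 2 were measured: Ackr3, given above, and the decoy receptor Ackr2 at 1.03 TPM with shETV4 and 0.02 TPM with shRFP, a difference of 0.99. The receptor genes Ccr1, Ccr2, Ccr3, Cxcr1 and Cxcr4 were listed at 0 in both libraries.

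Among 34 other cytokine genes 11 were measured and none was called, with a median of 0.17. Mif, a cytokine made by most cells, was at 1319 TPM with shETV4 and 1486 TPM with shRFP, and Spp1, osteopontin, at 476 TPM with shETV4 and 423 TPM with shRFP. Tgfb1 was at 74.5 TPM with shETV4 and 49.6 TPM with shRFP. Tnf, Il1a and Il1b, the classical inducers of Ccl2, Cxcl1 and Il6, were listed at 0 in both libraries.

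**Figure D4:**
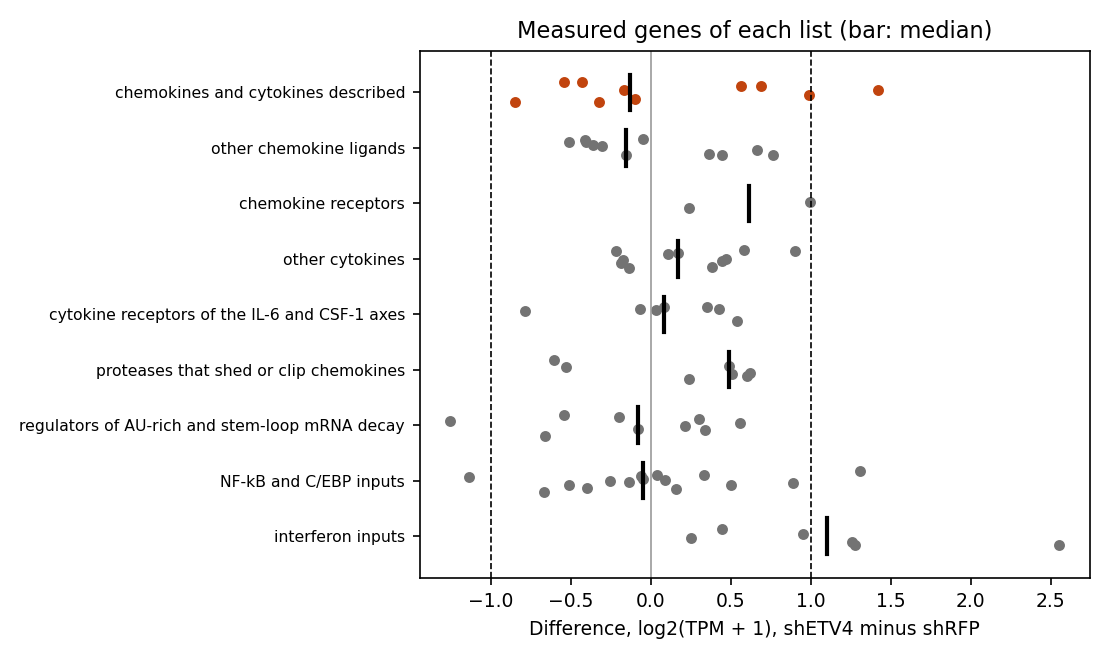
Difference on the log2(TPM + 1) scale, shETV4 minus shRFP, of the measured genes of the 8 pathway lists, marker lists not drawn, with a bar at the list's median and dashed lines at 2-fold; the 10 genes described are coloured. The interferon genes have a median of 1.10, and the medians of the other 7 pathway lists lie between -0.16 and 0.62.

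NF-kB genes showed no shared direction. All 15 genes of the NF-kB and C/EBP list were measured, 1 was called higher and 1 lower, and the median was -0.05. Rela, the main activating subunit, was at 65.1 TPM with shETV4 and 63.4 TPM with shRFP, and Nfkb1, its partner, at 63.3 TPM with shETV4 and 83.8 TPM with shRFP. Nfkbia, the inhibitor that NF-kB itself induces, was at 78.2 TPM with shETV4 and 93.6 TPM with shRFP. The called genes were Cebpb, a factor of Il6 and acute phase genes, at 37.1 TPM with shETV4 and 14.4 TPM with shRFP, and Chuk, the kinase IKK-alpha, at 5.76 TPM with shETV4 and 13.8 TPM with shRFP. After GC adjustment Cebpb was at 1.11 and Chuk at -0.60.

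Chemokine and cytokine mRNAs are often short-lived because AUUUA repeats in the 3′ untranslated region recruit decay factors. In the annotated transcript with the longest such region, counts of ATTTA were 11 in Cxcl2, 10 in Il6, 7 in Cxcl1, 4 in Cxcl12 and Csf1, 3 in Cxcl10, 2 in Ccl7 and Cxcl16, 1 in Ccl2 and 0 in Ccl5. Over 11497 measured coding genes the median count was 2, and 23.7% had 5 or more, as did Cxcl2, Il6 and Cxcl1. Those 3 genes are among the 4 sparsest of the 10. Counts rise with the length of the region, which ran from 199 bases in Ccl5 to 5188 in Cxcl12. For Il6 (1668 bases) and Cxcl2 (1494) it was longer than the median whole transcript of the gene (1052 and 1484 bases). Which annotated form these cells made was not tested, so the counts may differ in other forms. Per kb of that region, Cxcl1 (11.8), Cxcl2 (7.36) and Il6 were also the highest of the 10. The median per kb over those coding genes was 1.22. All of the 10 but Cxcl12 (0.77) and Ccl5 (0) lay above it, among them the abundant Ccl2 (3.64), Ccl7 and Cxcl10 (3.01). Ccl5, the gene with the largest difference, has none in a region of 199 bases, the shortest of the 10; 29.2% of those coding genes have none either.

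The listed regulators of such decay were measured in all 9 cases, with 1 called lower, none higher and a median of -0.08. Rc3h2, a roquin that binds stem-loops, was at 1.73 TPM with shETV4 and 5.52 TPM with shRFP, and came to -0.45 after GC adjustment. Zfp36, tristetraprolin, was at 10.8 TPM with shETV4 and 8.57 TPM with shRFP, and Zc3h12a, the RNase regnase-1 that cuts Il6 mRNA, at 26.7 TPM with shETV4 and 17.8 TPM with shRFP. Hnrnpd, another AU-rich element binder, was at 268 TPM with shETV4 and 391 TPM with shRFP.

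**Figure D5:**
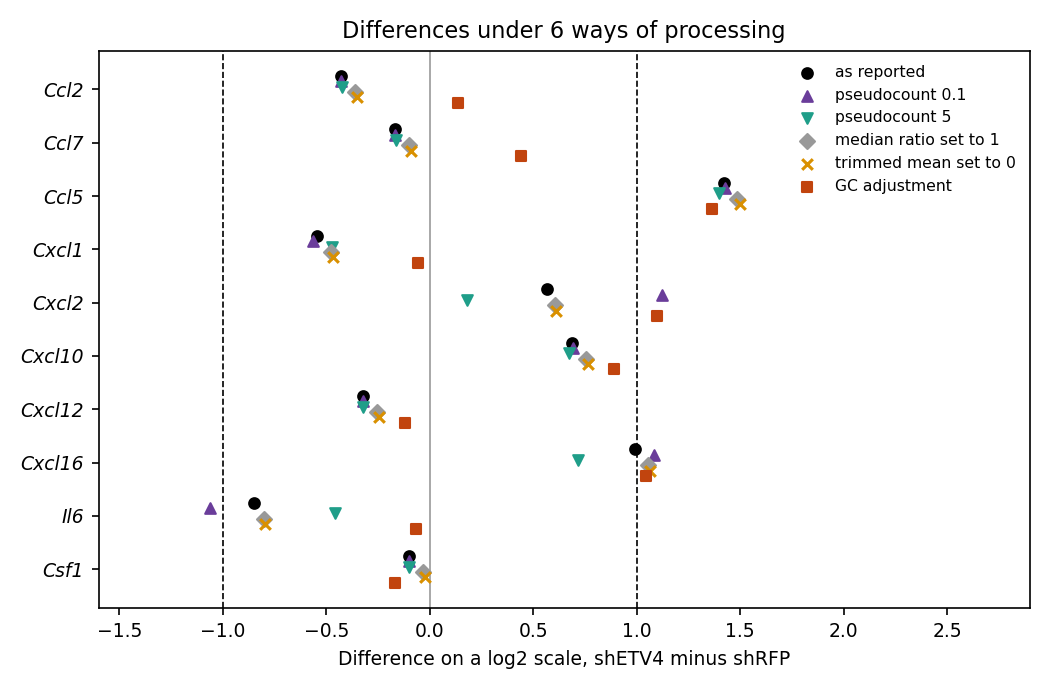
Difference of each of the 10 genes, shETV4 minus shRFP on a log2 scale, as reported and under 5 alternatives, with dashed lines at 2-fold. Ccl5 stays at 1.37 or more, Ccl2 and Ccl7 cross 0 with the GC adjustment, and the sparse genes Cxcl2, Cxcl16 and Il6 move with the pseudocount.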

How the data were processed

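Total RNA of 2 libraries, 1 per group, was made into TruSeq libraries and sequenced, per the labels' protocols. The authors deposited TPM values, given to 2 decimals; no header names the unit, and it was taken from the column sums, which come to 999870 with shETV4 and 1000000 with shRFP. HISAT2, RSEM and GRCm38.p4 are named without roles in the submitters' processing notes; the sources used here do not give the annotation, strand setting or filters. TPM is relative to each library's total, so a gain in some RNAs lowers the others, and depth, intervals and floors cannot be had.

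The files hold 55640 records, of which 153 loci without a gene symbol were left out. GENCODE M21 (GRCm38) gave position, biotype, GC content (median over transcripts), 3′ untranslated regions and shared 31-base words for 99.5% of named records; RefSeq gave promoters. Differences used a pseudocount of 1; genes reaching 1 TPM in either library were measured, and 2-fold was called. No test was possible. Some genes of the lists are not reported here by name. All 10 genes, called list members and the most abundant others were named; other genes named as neighbours, markers, receptors, inducers or for a known role were chosen after their values were seen. The genes and the 14 lists were chosen with earlier results of these data known. The procedure was tested on simulated data, with planted changes larger than 2-fold in genes well above 1 TPM and little simulated scatter. That test therefore does not cover changes near 2-fold or sparse genes. Alternatives changed pseudocount, filter, scale, threshold, record choice and GC adjustment (running median over 50 bins). The tools were pandas 2.3.3, numpy 2.4.6 and scipy 1.17.1 under Python 3.11.15, with figures from matplotlib 3.10.9.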

Additional observations from a re-analysis of the deposited data

How the results depend on the processing

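No paired analysis was possible because each group has 1 library. Under 10 alternatives Cxcl12, Csf1 and Cxcl1 kept their direction and side of the threshold, and 2 differences reversed, both with the GC adjustment: Ccl2 to 0.14 and Ccl7 to 0.44; beyond the GC trend itself the cause was not tested. The count of the 10 genes called higher, 1 as reported, was 3 with a pseudocount of 0.1, with the GC adjustment and at 1.5-fold, 2 with the median ratio set to 1 and with the trimmed mean of log ratios set to 0, and 0 at 3-fold. The count called lower, 0 as reported, was 1 with a pseudocount of 0.1 and at 1.5-fold, Il6 each time. Over all measured genes, 439 were called higher and 916 lower as reported, 674 and 1459 with a pseudocount of 0.1, 167 and 267 with a pseudocount of 5, 1117 and 2591 at 1.5-fold, and 162 and 162 at 3-fold. With a filter of 5 TPM 252 were called higher, and with the GC adjustment 518 were called higher and 300 lower (4% and 2.32%), which turns the balance of the calls. Over the 8 pathway lists 4 genes were called higher and 2 lower; these counts were 7 and 0 with the GC adjustment, 12 and 6 at 1.5-fold, and 1 and 0 at 3-fold, and 0 were called lower with a pseudocount of 5. The alternatives' own construction (a looser or stricter threshold, weight of low values) sets the direction of the threshold, filter and pseudocount changes. The median of the 10 genes was -0.13 as reported, near the -0.10 over all measured genes. With the GC adjustment it was 0.29, against -0.0004 over all genes so adjusted. With depth unknown, genes near 1 TPM such as Cxcl2 cannot be given a counting error.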
